A study of Homo sapiens with 9 samples.

Results

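The genes described here are 10 genes of the actin cytoskeleton: the cytoplasmic actins ACTB and ACTG1, the monomer and turnover proteins PFN1 and CFL1, the tropomyosins TPM1 and TPM4, the nonmuscle myosin chains MYH9 and MYL9, the bundling protein TAGLN2 and the adhesion protein vinculin (VCL). They were found by symbol among the 15354 genes of a table of expression values, and all 10 had a row. The set was chosen by the measured difference in ACTB between a pair of small interfering RNAs (siRNAs), so the levels of ACTB are given as a description, with no test. For the other 9 genes each comparison was tested in a fit over all 13893 genes with at least 1 CPM (counts scaled to a fixed library total) in at least 3 libraries, a filter that all 10 passed in every group.

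The cells were HCT116, a long established line of human colorectal cancer, and their RNA was profiled by RNA-seq. The cells were reverse transfected with siRNA at 25 nM, in 3 groups of 3 libraries: a non-targeting control, siRNA A and siRNA B, the last pair directed against the long non-coding RNA SNHG5. All groups were transfected, and no untransfected cells were analysed here, so every value is relative to cells that received a control siRNA. The libraries held 15566530 to 23277549 reads of 50 bases from one end of poly(A) RNA, and the member with the fewest reads in a library, TPM1, still had 211 reads.

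Actin is the protein of the thin filaments that give cells their shape, their cortex and the core of their microvilli. Filaments grow from monomers delivered by profilin, are severed by cofilin, are stabilised by tropomyosins that lie along them, are bundled by crosslinkers such as transgelin proteins, are pulled on by nonmuscle myosin II and are tied to adhesions by vinculin. Many genes of this machinery, actins included, are targets of serum response factor, which binds a short element called the CArG box together with coactivators that sense the pool of free actin monomers.

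A few properties of the whole series touch these results. SNHG5 stood at 22.1 to 31.3 TMM-scaled CPM in the control libraries, at 58.8 to 71.5 with siRNA A by label and at 46.1 to 50.3 with siRNA B by label, so the targeted RNA was higher and not lower in the libraries labelled as its knock-down (log2 fold change 1.29 and 0.83, adjusted p = 1.86e-05 and 0.00059 in limma). All groups below are therefore groups by label. The TMM (trimmed mean of M values) scaling factors, which correct for differences in RNA composition, had group means of 1.14 in control, 0.886 in siRNA A and 0.988 in siRNA B. With library totals in place of TMM, the median log2 fold change of all genes went from -0.02 to -0.34 for siRNA A, from 0.0043 to -0.18 for siRNA B and from -0.01 to -0.15 between the siRNAs, and all directions below are on the TMM scale unless stated. All 8 epithelial markers, such as EPCAM and KRT18, reached 1 CPM in every library. Their summed level was 2141 to 2247 CPM in control, 2837 to 3492 in siRNA A and 2416 to 2485 in siRNA B, most of it from the keratins KRT8, KRT18 and KRT19. Single markers went the other way, such as EPCAM, at 186 to 214 CPM in control and 94.6 to 116 in siRNA A, and CDX2, at 15.8 to 16.7 and 7.58 to 9.79. Of 11 muscle and fibroblast markers 6 had a row, which summed to 27.9 to 29.6 CPM in control, 13.0 to 17.3 in siRNA A and 17.2 to 18.1 in siRNA B, with LUM at 0 in all 9 libraries. The part of either marker list in the results below was not tested.

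Measured per kilobase of transcript, the cytoplasmic actins were the most abundant of the 10 mRNAs in control cells. The level was 2504 ± 137 TMM-scaled CPM per kilobase for ACTG1 and 2024 ± 70.9 for ACTB (SD, n = 3). PFN1 followed at 738 ± 62.1, CFL1 at 628 ± 37.97, TPM4 at 141 ± 17.0, MYH9 at 82.1 ± 11.99, TAGLN2 at 54.9 ± 4.51, VCL at 46.6 ± 2.16, MYL9 at 23.5 ± 1.70 and TPM1 at 18.6 ± 0.646. In this order no gene's control libraries overlapped with those of its neighbour. The length used was that of 1 annotated transcript per gene, while reads were counted per gene, and other lengths were not tried. By deposited CPM without regard to length, ACTG1 ranked 12th and ACTB 17th of all rows, while TPM1 ranked 6778th. Reads of the 10 genes together made up 1.28% ± 0.0566 of each control library, 1.47% ± 0.111 of each siRNA A library and 1.12% ± 0.0968 of each siRNA B library (SD, n = 3). In each group most of that share came from ACTB and ACTG1.

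**Figure D1:**
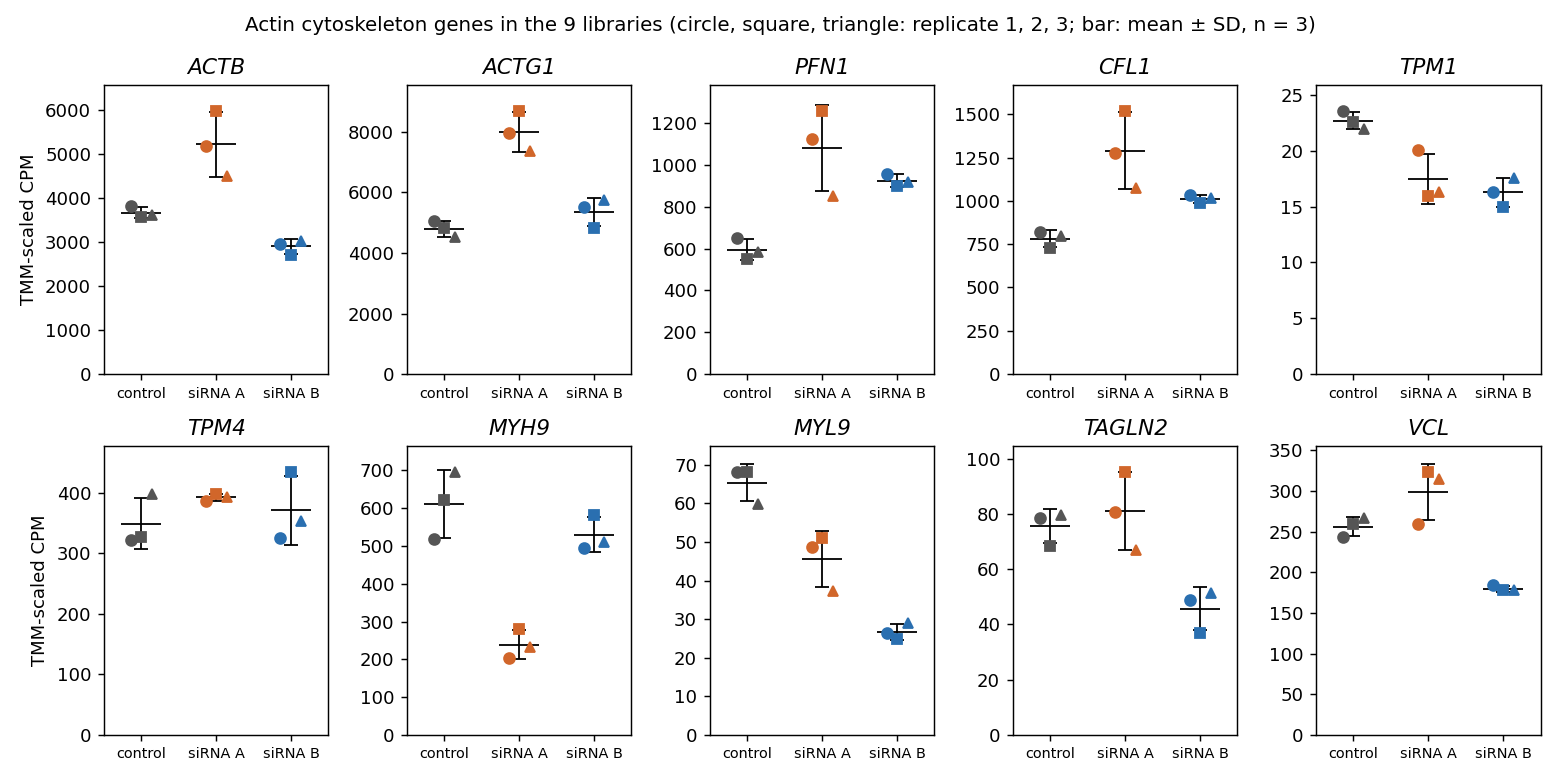
Level of each gene in TMM-scaled CPM (y axis, from 0) in the control, siRNA A and siRNA B libraries, where circles, squares and triangles are replicates 1, 2 and 3 and the bars give the mean ± SD. ACTB is above control in all 3 siRNA A libraries and below it in all 3 siRNA B libraries, MYH9 is lowest in siRNA A and MYL9 is lowest in siRNA B.

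ACTB and ACTG1 encode β- and γ-actin, which differ in only a few residues at the start of the protein. ACTB lies on GRCh37 chromosome 7 from 5566040 to 5603533, minus strand, and ACTG1 on chromosome 17 from 79476439 to 79490873, minus strand. Their coding sequences have the same length, 1125 bases, and differ at 98 of them, an identity of 91.3%. The first 60 coding bases are shown because, within the coding sequence, a library of 50-base reads can separate the genes only by such differences. They are taken from the GENCODE transcripts on GRCh37, 5′ to 3′ on the coding strand, with the 10 differing bases in capitals.
ACTB: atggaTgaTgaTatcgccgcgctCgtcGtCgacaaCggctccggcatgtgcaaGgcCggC
ACTG1: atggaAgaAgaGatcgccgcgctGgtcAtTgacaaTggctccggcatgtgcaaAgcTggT
Over the whole coding sequence, windows of 50 bases held from 0 to 12 differences. The longest identical stretch was the following 59 bases, coding bases 832 to 890 of both genes, which holds 10 of the 1076 coding windows.
shared by ACTB and ACTG1: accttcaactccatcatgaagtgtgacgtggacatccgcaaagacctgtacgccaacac
A read of 50 bases from within this stretch belongs equally to either gene, and a read from any other coding window carries at least 1 difference between them.

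Copies outside the pair were more frequent. An exact copy elsewhere in the genome or in a transcript annotated to another gene was found for 20.3% of the 1763 windows of ACTB. For ACTG1 it was 9.57% of 1870 windows. These counts include the 10 windows shared by the pair and, for each actin, 35 windows in a microRNA entry annotated inside the gene itself. Copies in the genome outside the gene were found for 336 windows of ACTB and 154 of ACTG1. The copies lay in genes such as the pseudogene ACTBP2 (95 windows of ACTB), POTEE (56) and ACTG1P20 (27 of ACTG1). Of the other genes, TPM4 had such copies for 32.4% of windows, mostly in the pseudogene TPM4P2, TAGLN2 for 21.6% and PFN1 for 16.8%, while CFL1, MYH9 and VCL had them for less than 1% each and TPM1 and MYL9 for none. How the authors' counting treated reads that match several places is not given in the sources used here, so the levels of ACTB, ACTG1, TPM4, TAGLN2 and PFN1 are the less certain ones. Every gene of the set other than TAGLN2 also overlaps another annotated gene. PFN1 overlaps ENO3, CFL1 overlaps SNX32 and MUS81, and VCL overlaps AP3M1, all on the opposite strand, and whether strand was used in counting is not given either.

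**Figure D2:**
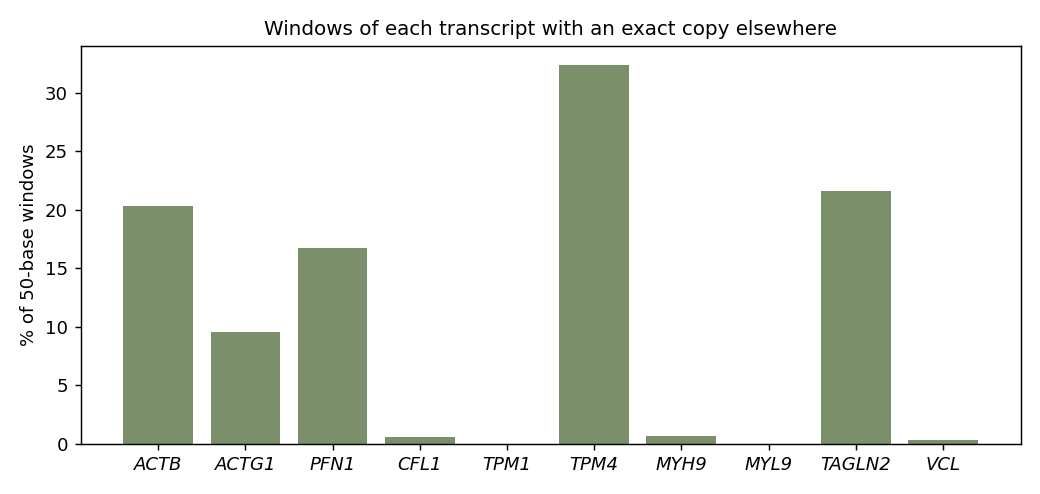
Percent of the 50-base windows of each gene's transcript (y axis) that have an exact copy elsewhere in GRCh37 or in a transcript annotated to another gene. For ACTB and ACTG1 this includes a microRNA entry annotated inside the gene itself. TPM4 is highest at 32.4%, followed by TAGLN2 and ACTB, and TPM1 and MYL9 have none.

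ACTB was measured at 3811, 3566 and 3623 TMM-scaled CPM in control replicates 1, 2 and 3. It stood at 5189, 5968 and 4498 in the siRNA A libraries and at 2961, 2712 and 3025 in the siRNA B libraries. On this scale the 3 groups did not overlap, with siRNA A above control and siRNA B below it. In deposited CPM, control (3998 to 4334) and siRNA A (4113 to 5073) overlapped, while siRNA B (2570 to 3066) stayed below both. On the log2(TMM-scaled CPM + 1) scale used for all fold changes here, the difference from control was 0.50 with siRNA A and -0.34 with siRNA B, and the siRNAs differed by 0.84, or 1.79-fold. With library totals these differences were 0.13, -0.55 and 0.68. These values led to the choice of the set and carry no test.

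ACTG1 was measured at 5050, 4842 and 4526 TMM-scaled CPM in control, at 7972, 8685 and 7371 in siRNA A and at 5518, 4833 and 5736 in siRNA B. Each siRNA A library lay above every other library, while control and siRNA B overlapped. ACTG1 rose with siRNA A by 0.74 ± 0.15 (log2, SE, 1.66-fold, adjusted p = 0.00139 in limma). With siRNA B it differed from control by 0.16 ± 0.15, with a 95% interval from -0.16 to 0.47 (adjusted p = 0.44). Set against each other, the siRNAs differed by 0.58 ± 0.15 (adjusted p = 0.00898).

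Since both actins are counted in the same library, their ratio does not depend on the scaling between libraries. ACTB reads per ACTG1 read came to 0.755, 0.737 and 0.800 in control, to 0.651, 0.687 and 0.610 in siRNA A and to 0.537, 0.561 and 0.527 in siRNA B. The ratio was thus below all control values in all 6 siRNA libraries, and lowest in siRNA B. This ratio and those below were chosen after the values had been seen and have no test. Ratios that include ACTB also rest on the values that led to the choice of the set.

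PFN1 encodes profilin, which binds actin monomers and feeds them to growing filament ends. It was measured at 650.1, 551.6 and 584.7 TMM-scaled CPM in control, at 1125, 1257 and 853.7 in siRNA A and at 958.8, 897 and 918.9 in siRNA B. All 6 siRNA libraries were above all control libraries, and the siRNA groups overlapped with each other. PFN1 rose by 0.84 ± 0.14 with siRNA A (1.79-fold, adjusted p = 0.000468 in limma) and by 0.64 ± 0.14 with siRNA B (1.56-fold, adjusted p = 0.00476). SiRNA A stood above siRNA B by 0.20, with a 95% interval from -0.10 to 0.51 (adjusted p = 0.276), and it passed the threshold without siRNA A replicate 3 (0.36, adjusted p = 0.0435).

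CFL1 encodes cofilin, which binds and severs older filaments. Its level was 819.7, 729 and 797.6 TMM-scaled CPM in control, 1275, 1518 and 1077 in siRNA A and 1033, 986.2 and 1015 in siRNA B. The 3 groups did not overlap, with siRNA B between control and siRNA A. CFL1 rose by 0.71 ± 0.13 with siRNA A (adjusted p = 0.000847 in limma) and by 0.37 ± 0.13 with siRNA B (adjusted p = 0.0437). The call for siRNA B was close to the threshold. It was lost with library totals (0.16, adjusted p = 0.331), with no filter on low genes (adjusted p = 0.0572) and when any of 7 libraries was left out: each control library, each siRNA B library or siRNA A replicate 1 (adjusted p from 0.0607 to 0.152). Between the siRNAs CFL1 differed by 0.34, with an interval from 0.05 to 0.62 (adjusted p = 0.0601). There the edgeR count test gave adjusted p = 0.0486, DESeq2 gave 0.0171, and limma without siRNA A replicate 3 gave 0.0189.

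Relative to the actins of the same library, PFN1 reads per read of ACTB and ACTG1 were 0.0734, 0.0656 and 0.0718 in control, 0.0855, 0.0858 and 0.0719 in siRNA A and 0.113, 0.119 and 0.105 in siRNA B. CFL1 reads per actin read were 0.0925, 0.0867 and 0.0979 in control, 0.0969, 0.104 and 0.0907 in siRNA A and 0.122, 0.131 and 0.116 in siRNA B. For both genes the siRNA B libraries had more reads per actin read than any other library, and the control and siRNA A libraries overlapped. The actin reads include those of ACTB, whose difference between the siRNAs led to the choice of the set. The order of the siRNA groups in these ratios is thus partly given by that choice.

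Tropomyosins are coiled-coil proteins that polymerise along the filament and set which other proteins can reach it. TPM1, the less abundant of the pair here, was measured at 23.53, 22.54 and 21.97 TMM-scaled CPM in control, at 20.04, 15.95 and 16.34 in siRNA A and at 16.33, 14.91 and 17.53 in siRNA B. All siRNA libraries were below all control libraries. TPM1 fell by 0.37 with siRNA A (SE 0.12, adjusted p = 0.0217 in limma) and by 0.46 with siRNA B (SE 0.12, adjusted p = 0.0111). The call for siRNA A did not survive leaving out control replicate 1 (adjusted p = 0.0588), siRNA A replicate 2 (0.0715) or siRNA A replicate 3 (0.0716). The siRNAs differed by 0.09, with an interval from -0.17 to 0.35 (adjusted p = 0.572).

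TPM4 was measured at 322.2, 327.7 and 397.5 TMM-scaled CPM in control, at 386.7, 398 and 392.4 in siRNA A and at 325, 434.4 and 353.5 in siRNA B. The groups overlapped in every comparison. Its difference from control was 0.17 for siRNA A (interval from -0.10 to 0.45, adjusted p = 0.262 in limma) and 0.08 for siRNA B (interval from -0.19 to 0.36, adjusted p = 0.642), and both turned negative with library totals (-0.19 and -0.13). TPM4 reads per TPM1 read were 13.7, 14.5 and 18.1 in control, 19.3, 25.0 and 24.01 in siRNA A and 19.9, 29.1 and 20.2 in siRNA B. Every siRNA library had a higher ratio than every control library.

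Nonmuscle myosin II is built of heavy chains, among them the one encoded by MYH9, and of light chains, among them the regulatory light chain encoded by MYL9. MYH9 was measured at 517.9, 621 and 695.7 TMM-scaled CPM in control, at 202.8, 280.2 and 232.7 in siRNA A and at 495.5, 582.8 and 510.8 in siRNA B. The siRNA A libraries were lower than all others, while control and siRNA B overlapped. MYH9 fell by 1.36 with siRNA A (SE 0.14; 2.56-fold lower, adjusted p = 2.42e-05 in limma), the largest change of the 9 tested genes. With siRNA B its difference from control was -0.20 (interval from -0.51 to 0.11, adjusted p = 0.306), and -0.41 with library totals (adjusted p = 0.0267). Between the siRNAs the difference was -1.16 ± 0.14 (adjusted p = 0.000134).

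MYL9 was measured at 68.11, 68.14 and 59.94 TMM-scaled CPM in control, at 48.6, 50.94 and 37.19 in siRNA A and at 26.35, 24.86 and 28.93 in siRNA B. The 3 groups did not overlap, and the order was control, siRNA A, siRNA B. MYL9 fell by 0.52 with siRNA A (SE 0.13, adjusted p = 0.00514 in limma) and by 1.26 with siRNA B (SE 0.13; 2.40-fold lower, adjusted p = 4.09e-05), and the siRNAs differed by 0.74 ± 0.13 (adjusted p = 0.00108). Reads of MYH9 per read of MYL9 were 7.60, 9.11 and 11.6 in control, 4.17, 5.50 and 6.26 in siRNA A and 18.8, 23.4 and 17.7 in siRNA B. The groups did not overlap, and the mean ratio moved from 9.44 ± 2.02 in control to 5.31 ± 1.05 in siRNA A and to 19.97 ± 3.07 in siRNA B (SD, n = 3).

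**Figure D3:**
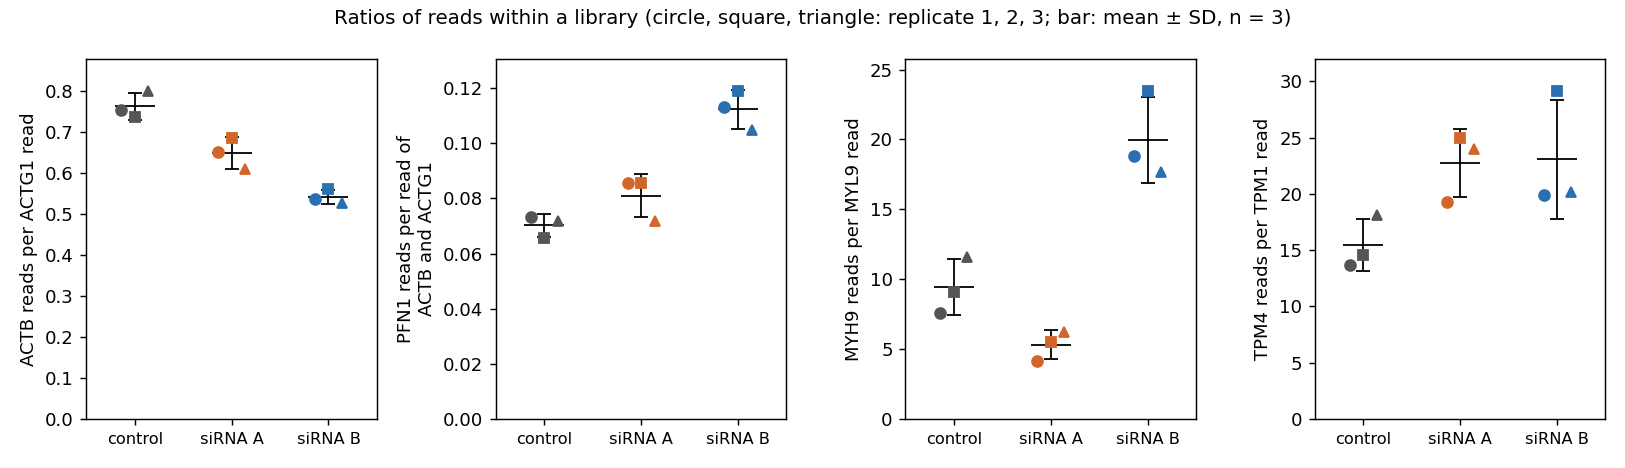
Reads of one gene per read of another in the same library (y axes, from 0), for ACTB per ACTG1, PFN1 per both actins, MYH9 per MYL9 and TPM4 per TPM1, where circles, squares and triangles are replicates 1, 2 and 3 and bars give the mean ± SD. The MYH9 to MYL9 ratio is below control in siRNA A (5.31 against 9.44) and above it in siRNA B (19.97), and ACTB per ACTG1 is lowest in siRNA B (0.542).

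TAGLN2 encodes transgelin-2, a small protein of the calponin family that bundles filaments. It was measured at 78.68, 68.4 and 79.55 TMM-scaled CPM in control, at 80.82, 95.23 and 66.98 in siRNA A and at 48.75, 36.99 and 51.42 in siRNA B. The siRNA B libraries were below all others. TAGLN2 fell by 0.72 with siRNA B (SE 0.15; 1.65-fold lower, adjusted p = 0.00344 in limma) and its difference from control was 0.09 with siRNA A (interval from -0.24 to 0.42, adjusted p = 0.648), which became -0.28 with library totals. The siRNAs differed by 0.81 ± 0.15 (adjusted p = 0.00167).

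VCL encodes vinculin, which links actin to integrin adhesions and to cell junctions. It was measured at 243.1, 258.9 and 266.3 TMM-scaled CPM in control, at 258.8, 323.3 and 314.1 in siRNA A and at 183.8, 177.9 and 177.5 in siRNA B. The siRNA B libraries were again the lowest. VCL fell by 0.51 with siRNA B (SE 0.10, adjusted p = 0.0031 in limma), and the siRNAs differed by 0.72 ± 0.10 (adjusted p = 0.000345). With siRNA A its difference from control was 0.22 (interval from -0.01 to 0.44, adjusted p = 0.101). It passed in DESeq2 (0.25, adjusted p = 0.0449) and without siRNA A replicate 1 (0.32, adjusted p = 0.0287), and turned to -0.15 with library totals.

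Counted over the 9 genes other than ACTB, siRNA A against control gave 3 higher (ACTG1, PFN1, CFL1), 3 lower (TPM1, MYL9, MYH9) and 3 that did not pass, where 51.4% of all tested genes passed (23.9% higher and 27.6% lower). With library totals the counts were again 3 and 3, where 56.1% passed (9.05% higher and 47.0% lower). SiRNA B against control gave 2 higher (PFN1, CFL1), 4 lower (TPM1, MYL9, TAGLN2, VCL) and 3 that did not pass, where 34.0% of all tested genes passed (15.6% higher and 18.3% lower). With library totals this became 1 higher and 5 lower, where 36.6% passed (6.90% higher and 29.7% lower). SiRNA A against siRNA B gave 4 higher (ACTG1, MYL9, TAGLN2, VCL), 1 lower (MYH9) and 4 that did not pass, where 37.1% of all tested genes passed (17.6% higher and 19.5% lower), and again 4 and 1 with library totals, where 37.2% passed (10.2% higher and 27.0% lower). The groups did not overlap for 6 of the 9 genes in each comparison: 3 higher and 3 lower with siRNA A (59.5% of all tested genes, 27.6% higher and 31.9% lower), 2 and 4 with siRNA B (47.6%, 22.5% and 25.1%), and 5 and 1 between the siRNAs (47.6%, 22.6% and 25.0%). The median log2 difference over the 9 genes came to 0.17 for siRNA A, -0.20 for siRNA B and 0.34 between the siRNAs, and -0.19, -0.41 and 0.18 with library totals. The comparisons with control share the same 3 control libraries.

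**Figure D4:**
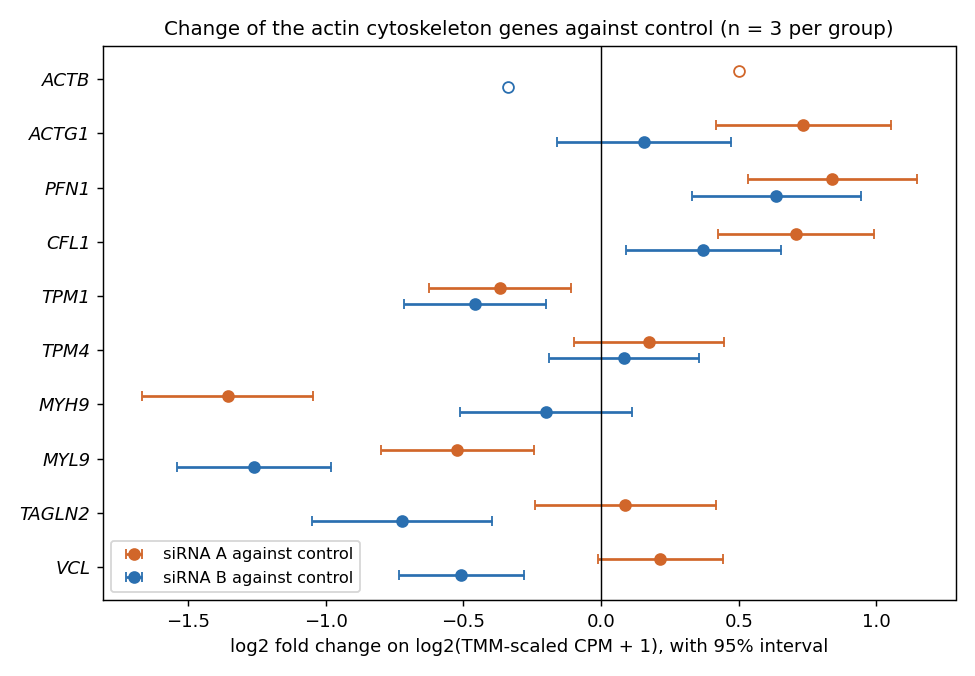
Log2 fold change against control on log2(TMM-scaled CPM + 1) (x axis) for each gene with siRNA A and siRNA B, where bars are 95% intervals from limma and n = 3 libraries per group. ACTB is drawn with open points and no interval because it was chosen for its values. MYH9 lies at -1.36 with siRNA A and -0.20 with siRNA B, and MYL9 at -0.52 and -1.26.

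The profile of ACTB over the 9 libraries was set beside that of every other tested gene by the root mean square difference of centred log2 values. The nearest were CINP (0.0626), FKBP8 (0.0736), EIF3I (0.0867), RRP9 (0.0900) and B4GAT1 (0.0906), where the median gene had 0.453. Of the set, VCL ranked 263rd of 13892 genes, TAGLN2 525th and ACTG1 526th, followed by CFL1 at 2086th. MYH9 ranked 13691st. These ranks describe the ACTB values that led to the choice of the set, and carry no test.

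The wider machinery was followed through 9 lists with 129 genes, of which 122 had a row and 120 were tested. Over all lists, siRNA A gave 47 higher and 23 lower, or 58.3% called, where 51.4% of all tested genes were. SiRNA B gave 37 higher and 26 lower, or 52.5%, where 34.0% of all tested genes were called. SiRNA A against siRNA B gave 30 higher and 22 lower, or 43.3%, where it was 37.1% of all tested genes. The balance of directions depended on the scaling, in these lists as over all genes. With library totals the counts were 19 higher and 53 lower for siRNA A (9.05% and 47.0% of all genes). They were 15 and 38 for siRNA B (6.90% and 29.7%), and 19 and 32 between the siRNAs (10.2% and 27.0%). The same shares of all genes apply to the counts with library totals in each list below. The median log2 fold change of the 120 genes was 0.14, 0.10 and 0.15 on the TMM scale and -0.22, -0.10 and -0.0040 with library totals. The gene named from each list is the one that moved most in a comparison.

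**Figure D5:**
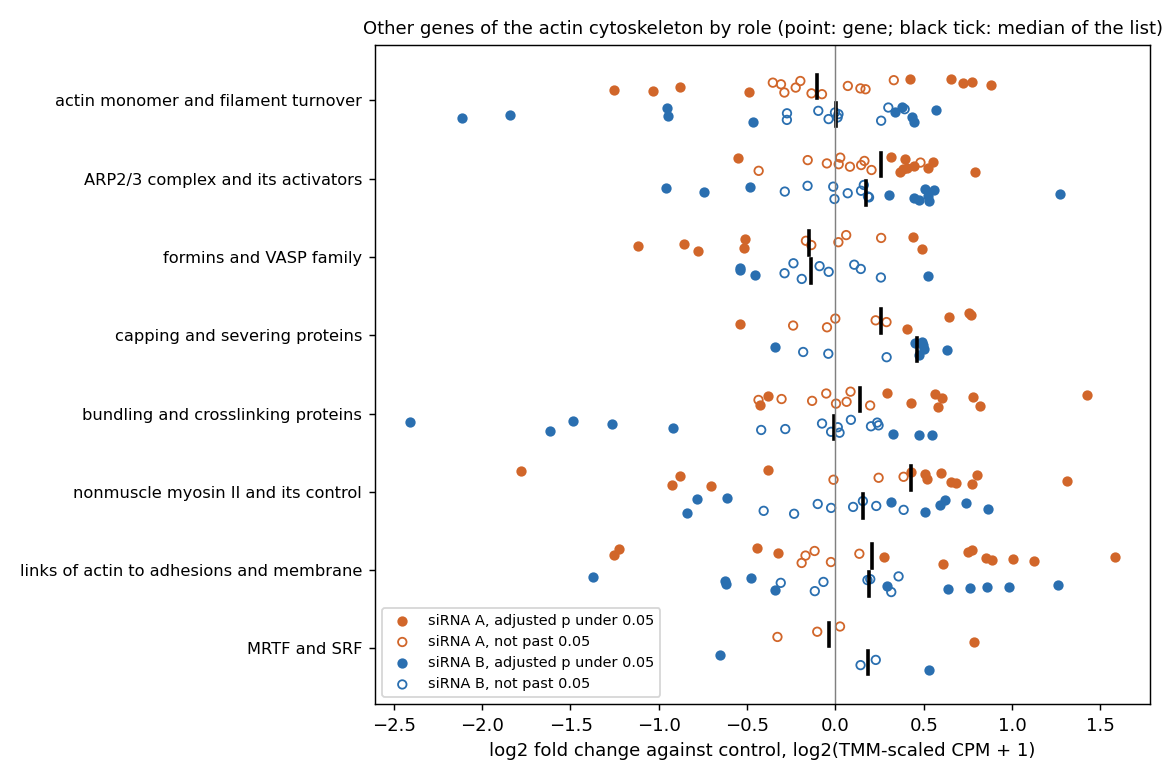
Log2 fold change against control on log2(TMM-scaled CPM + 1) (x axis) of the tested genes of the lists by role (y axis, without the single gene of the list of other actins), with siRNA A in orange and siRNA B in blue. Filled points passed adjusted p of 0.05 in limma, open points did not, and black ticks are list medians. The points farthest left are FLNA (-2.41) and LIMK1 (-2.11) with siRNA B, and the point farthest right is FERMT2 (1.58) with siRNA A.

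Among genes of monomer and filament turnover, siRNA A gave 5 higher and 4 lower of 20 (45.0% called, 51.4% of all genes), and siRNA B gave 5 and 5 (50.0%, 34.0% of all genes). With library totals these were 2 and 9, and 0 and 7. LIMK1, the kinase that phosphorylates and so inactivates cofilin, fell with both: it stood at 86.9 ± 4.90 TMM-scaled CPM in control, 36.0 ± 3.57 in siRNA A and 19.3 ± 1.22 in siRNA B (SD, n = 3), a log2 change of -1.25 and -2.11 (limma, adjusted p = 6.37e-06 and 5.78e-07). PFN2, the second profilin gene, fell with siRNA B by 0.95 (adjusted p = 0.00044), while PFN1 had risen. With siRNA A its difference was 0.33 (adjusted p = 0.0693), which passed in DESeq2, with the replicate block, with 2 groups only and without siRNA B replicate 2, and was -0.037 with library totals. The list of other actins had 1 gene tested, ACTA2, the smooth muscle α-actin, at 2.39 ± 0.581 TMM-scaled CPM in control, 1.12 ± 0.274 in siRNA A and 4.63 ± 1.32 in siRNA B (log2 change -0.67 and 0.72, adjusted p = 0.011 and 0.0125). Leaving out control replicate 2 ended the first call (adjusted p = 0.0527), and leaving out control replicate 1 the second (0.05003). ACTA1, ACTC1, ACTG2 and ACTBL2 were not analysed here.

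For the ARP2/3 complex, which starts branched filaments, and its activators, siRNA A gave 9 higher and 1 lower of 20 (50.0% called, 51.4% of all genes), and siRNA B gave 8 and 3 (55.0%, 34.0% of all genes). Of all genes 23.9% were higher and 27.6% lower with siRNA A, and 15.6% and 18.3% with siRNA B. With library totals the counts were 1 higher and 7 lower (9.05% and 47.0% of all genes), and 3 and 5 (6.90% and 29.7%). WASF1, a subunit of the WAVE activator, stood at 19.4 ± 2.34 TMM-scaled CPM in control and rose to 48.8 ± 9.86 in siRNA B (1.27, adjusted p = 0.00011 in limma). In siRNA A it stood at 26.8 ± 2.69, and that call (0.45, adjusted p = 0.0282) was lost with library totals (0.09, adjusted p = 0.627). Leaving out control replicate 1 or 2 or siRNA A replicate 2 or 3 ended it too (0.0552 to 0.105). NCKAP1, another WAVE subunit, rose by 0.79 with siRNA A (adjusted p = 0.002). With siRNA B its call (0.47, adjusted p = 0.0438) was lost with library totals (0.26), with no filter, and without any 1 of 6 libraries (adjusted p from 0.0616 to 0.159). The ARP2/3 subunit ARPC1A rose with siRNA A by 0.39 (adjusted p = 0.0133), a call lost with library totals (0.03), and fell with siRNA B by 0.49 (adjusted p = 0.00719). Formins and the VASP family, which elongate unbranched filaments, gave 2 higher and 5 lower of 12 with siRNA A (58.3% called, 51.4% of all genes) and 1 and 3 with siRNA B (33.3%, 34.0% of all genes), or 0 and 7, and 1 and 5, with library totals. INF2, a formin, fell with both (-1.12 and -0.46, adjusted p = 8.52e-06 and 0.00473). VASP fell with siRNA A by 0.52 and rose with siRNA B by 0.52 (adjusted p = 0.000861 and 0.0015), at 116 ± 4.71, 80.8 ± 6.85 and 167 ± 7.16 TMM-scaled CPM. DAAM1, also a formin, fell by 0.51 and 0.54 (adjusted p = 0.0119 and 0.0142), the second call being lost without control replicate 1 (0.0504) or siRNA B replicate 1 (0.0617).

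Capping and severing proteins gave 4 higher and 1 lower of 10 with siRNA A (50.0% called, 51.4% of all genes), and 6 and 1 with siRNA B (70.0%, 34.0% of all genes). With library totals these were 3 and 4, and 3 and 2. CAPZA2, a subunit of the protein that caps the growing end, rose by 0.77 with siRNA A (adjusted p = 0.000161 in limma) and by 0.45 with siRNA B (adjusted p = 0.0076; 0.24 and lost with library totals). CAPG, another capping protein, rose by 0.63 with siRNA B (adjusted p = 0.00141). With siRNA A its difference was 0.29 (adjusted p = 0.0507), which passed with no filter, in DESeq2, with the replicate block and without any 1 of 4 libraries: control replicate 1, siRNA A replicate 3, or siRNA B replicate 2 or 3 (adjusted p from 0.0222 to 0.0496), and was -0.073 with library totals. TMOD1, which caps the other end, rose by 0.47 with siRNA B (adjusted p = 0.00844; 0.27 and lost with library totals), and with siRNA A its difference of -0.05 (adjusted p = 0.749) became -0.40 with library totals (adjusted p = 0.014). Among bundling and crosslinking proteins, siRNA A gave 8 higher and 2 lower of 18 (55.6% called, 51.4% of all genes), and siRNA B 3 and 5 (44.4%, 34.0% of all genes). With library totals the counts were 2 higher and 8 lower (9.05% and 47.0% of all genes), and 0 and 7 (6.90% and 29.7%). FLNA, the main filamin of nonmuscle cells, stood at 915 ± 192 TMM-scaled CPM in control, 874 ± 108 in siRNA A and 171 ± 28.3 in siRNA B. It fell with siRNA B by 2.41 (5.31-fold lower, adjusted p = 3.51e-06), while the difference with siRNA A was -0.05 (adjusted p = 0.814; -0.42 and adjusted p = 0.0446 with library totals). Its paralog FLNC went the other way with siRNA A, from 90.4 ± 20.3 in control to 244 ± 50.9 (1.42, adjusted p = 8.84e-05), and stood at 85.0 ± 13.1 in siRNA B (-0.08, adjusted p = 0.782).

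Other chains of nonmuscle myosin II and its control gave 9 higher and 5 lower of 17 with siRNA A (82.4% called, 51.4% of all genes), and 6 and 3 with siRNA B (52.9%, 34.0% of all genes), or 3 and 6, and 2 and 5, with library totals. MYH14, another heavy chain, fell with both siRNAs, from 64.8 ± 5.89 TMM-scaled CPM in control to 18.3 ± 2.61 in siRNA A and 37.1 ± 1.41 in siRNA B (-1.78 and -0.78, adjusted p = 2.12e-06 and 0.000518 in limma). MYH10, the third nonmuscle heavy chain, was lower too (-0.38 and -0.61, both past the threshold), and was named after its value was seen. The light chains of the list were named in the same way, and unlike MYL9 they were higher. MYL12A differed by 0.51 and 0.31, MYL12B by 0.80 and 0.74, and MYL6 by 0.43 and 0.62 (all past the threshold on the TMM scale). MYL6B differed by 0.60 and 0.16, the second not past the threshold. Control means were 164 TMM-scaled CPM for MYL12A and 286 for MYL12B, against 65.4 for MYL9. RHOA, the GTPase that activates the kinases of the myosin light chain, rose with both, from 568 ± 40.6 to 1416 ± 171 and 1033.7 ± 13.6 (1.31 and 0.86, adjusted p = 7.53e-06 and 0.000224). RHOC rose with siRNA A by 0.68 (adjusted p = 0.00352), a call lost with library totals (0.32, adjusted p = 0.106). With siRNA B it differed by -0.41 (adjusted p = 0.0636), which passed with library totals (-0.62), in DESeq2, with the replicate block, with 2 groups only and without control replicate 3 or siRNA A replicate 3.

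Genes that link actin to adhesions and membrane gave 9 higher and 4 lower of 18 with siRNA A (72.2% called, 51.4% of all genes), and 6 and 5 with siRNA B (61.1%, 34.0% of all genes), or 7 and 8, and 5 and 6, with library totals. FERMT2, a kindlin that activates integrins, rose with both, from 46.3 ± 4.93 TMM-scaled CPM in control to 141 ± 14.1 and 113 ± 20.1 (1.58 and 1.26, adjusted p = 6.37e-06 and 5.49e-05 in limma). TLN2, a talin and so a binding partner of vinculin, fell with both, from 7.90 ± 2.60 to 2.71 ± 0.0973 and 2.45 ± 1.07 (-1.23 and -1.37, adjusted p = 0.0009 and 0.000836). ZYX, which encodes zyxin of focal adhesions, rose with siRNA A by 0.77 and fell with siRNA B by 0.48 (adjusted p = 0.000132 and 0.00501). In the list of serum response factor and its coactivators, 1 of 4 genes was higher with siRNA A (25.0% called, 51.4% of all genes), and 1 higher and 1 lower with siRNA B (50.0%, 34.0% of all genes). With library totals these were 1 higher and 3 lower, and 0 and 1. SRF, the factor itself, stood at 79.0 ± 10.4 TMM-scaled CPM in control, 80.3 ± 8.22 in siRNA A and 49.6 ± 3.81 in siRNA B, and fell with siRNA B by 0.66 (adjusted p = 0.00163). With siRNA A its difference was 0.03 (adjusted p = 0.871), and with library totals it was called lower (-0.34, adjusted p = 0.0373). FHL2, a cofactor, rose by 0.78 and 0.53 (adjusted p = 0.000214 and 0.00462), the second call being lost with library totals (0.32, adjusted p = 0.0711).

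Promoter sequences of RefSeq (GRCh38.p14) matched 8 of the 10 genes, all but ACTB and MYL9. In the 250 bases before each start, a CArG box was sought on both strands. It was present in a promoter of 2 of the 8 genes, ACTG1 and TPM4, and in 407 of all 35116 promoters (1.16%). The first count is of genes, some with several promoters, and the second is of promoters, so the shares are not like measures. The boxes are shown with 30 bases on each side, 5′ to 3′ on the strand of the gene, with the box in capitals, because ACTG1 and TPM4 are also genes of the set that differ in whether they were called. The ACTG1 stretch is chr17:81512854-81512923, minus strand, and the TPM4 stretch is chr19:16067335-16067404, plus strand.
ACTG1 CArG box: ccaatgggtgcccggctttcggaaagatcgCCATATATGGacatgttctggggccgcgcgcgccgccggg
TPM4 CArG box: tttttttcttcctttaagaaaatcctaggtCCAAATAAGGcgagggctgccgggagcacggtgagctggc
ACTG1, with its box 94 bases before the start, was higher with siRNA A, and TPM4, with its box 173 bases before one of its starts, was called in no comparison.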

How the data were processed

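RNA was isolated by the study from 3 biological replicates of HCT116 cells per group, and 9 libraries were read on an Illumina HiSeq instrument. The authors deposited 1 table of CPM values, reads per gene divided by the library total. The submitters' processing notes name TopHat2, HTSeq and GRCh37 (hg19), and the role of each is not given. All CPM values were whole multiples of 1 read (100% of values within 1e-06), so reads were recovered. Of the identifiers, 14871 of 15354 matched a reference list of gene names, which gave symbols. GENCODE on GRCh37 gave positions, transcripts and overlaps.

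The 10 genes, the role lists and the marker lists were chosen with earlier results of these data known. CPM values were divided by TMM factors, and log2(CPM + 1) was tested, for genes reaching 1 CPM in 3 or more libraries, with limma 3.58.1 (trend, all 9 libraries in 1 fit, Benjamini-Hochberg adjustment over 13893 genes, threshold 0.05). A fold change on this scale understates that of low genes. The tables were made with R 4.3.3, edgeR 4.0.16, DESeq2 1.42.0 and Python 3.11.15, and the fits were tested on simulated data. Those data had few changed genes, balanced in direction, so they check the code and not the calls or the scaling of these libraries. Counting error was at most 6.88% for any of the 10 genes. Reads carried no molecular identifiers, so it covers counting only.

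Groups and replicate numbers came from the titles. Libraries of 1 group differed beyond sampling noise (chi-square per degree of freedom at least 13.0). Each library was set against its group mean, and the deviations of libraries with one number were correlated. For numbers 1, 2 and 3, r was 0.65, 0.41 and 0.13 between control and siRNA A. It was 0.17, 0.44 and -0.39 between control and siRNA B, and 0.20, 0.44 and 0.019 between the siRNAs. Libraries with different numbers were not correlated for reference, so whether the numbers pair was not tested. The main fit used no pairing. Named were all 10 genes, the gene of each list with the largest change past the threshold in each comparison, the 5 genes nearest to ACTB, and SNHG5. MYH10, the myosin light chains of the list and TLN1 were added after their values were seen, and were not followed singly through the alternatives. Windows of 50 bases were compared with GRCh37 on both strands and with the GENCODE transcripts on the sense strand. Alternatives were library totals, a pseudocount of 0.1, no filter, edgeR and DESeq2 on recovered reads, the replicate block, only the 2 groups compared, TMM factors without the 10 genes, and each library left out.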

Additional observations from a re-analysis of the deposited data

Results flagged for a closer look

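For 5 of the 9 genes other than ACTB, the effects of siRNA A and siRNA B differed by the test of the difference itself (limma, adjusted p under 0.05). ACTG1 differed by 0.58, MYL9 by 0.74, TAGLN2 by 0.81 and VCL by 0.72, each higher in all 3 siRNA A libraries than in all 3 siRNA B libraries, and MYH9 differed by -1.16, lower in all 3 siRNA A libraries. Of all tested genes 37.1% differed in this way.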

How the results depend on the processing

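The number of the 9 genes called stayed between 5 and 7 for siRNA A against control, between 5 and 6 for siRNA B and between 5 and 7 between the siRNAs over all 17 alternatives. With the replicate block the calls were 6, 6 and 5, and it changed no call of these genes. In the wider lists the block gave 79, 69 and 70 called genes against 70, 63 and 52, and leaving out a library gave 58 to 74, 50 to 63 and 35 to 53. The shares of all tested genes called under these settings are not given here. Whether the counts moved with those of all genes was therefore not tested. Calls against control that single genes lost or gained stand beside their values above.

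Signs turned for differences that were not called on the TMM scale. With library totals the values were -0.19 for TPM4, -0.28 for TAGLN2, -0.15 for VCL, -0.037 for PFN2, -0.073 for CAPG and -0.34 for SRF with siRNA A, of which SRF alone was then called (adjusted p = 0.0373). They were -0.057 for ACTG1 and -0.13 for TPM4 with siRNA B, and -0.055 for TPM1, -0.064 for TPM4 and -0.11 for DAAM1 between the siRNAs. With each library left out in turn, siRNA A gave -0.033 to 0.22 for TAGLN2 (lowest without siRNA A replicate 2), -0.22 to 0.078 for FLNA (above 0 without siRNA A replicate 1 or control replicate 2) and -0.058 to 0.12 for SRF (below 0 without either of control replicates 1 and 2 or without siRNA A replicate 1). SiRNA B gave -0.034 to 0.17 for TPM4 (lowest without siRNA B replicate 2) and -0.24 to 0.067 for FLNC (above 0 without control replicate 2 or siRNA B replicate 3). Between the siRNAs the ranges were -0.0057 to 0.15 for TPM1 (lowest without siRNA A replicate 1), -0.064 to 0.15 for DAAM1 (below 0 without replicate 1 of either siRNA) and -0.0072 to 0.39 for TLN2 (lowest without siRNA B replicate 3). The shift of the median gene with library totals is given above, and the cause of the other changes was not tested.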
